A study of Mus musculus with 10 samples.

Results

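The vacuolar proton pump (V-ATPase) and the proteases of the lysosome were followed at the RNA level in mouse lumbar spinal cord. Members were taken by gene symbol: every listed gene whose symbol starts with Atp6v0 or Atp6v1, the accessory genes Atp6ap1 and Atp6ap2, the assembly factor Vma21, the single-letter cathepsins (Ctsa to Ctsz) and the membrane proteins Lamp1 and Lamp2. The rule took 46 of 24411 listed genes. They were 13 genes of the V1 sector, 10 of the V0 sector, 3 accessory or assembly genes, 18 cathepsins and 2 LAMP genes. The rule reads symbols and no expression value. It was written with earlier results of these data known, including the low p of Vma21, which it takes by name.

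Groups were paclitaxel-treated mice (5 libraries) and vehicle-treated mice (5 libraries). Paclitaxel stabilises microtubules and is a cancer drug whose use is limited by painful peripheral neuropathy. The title of the study is about calcitonin receptor-like and the chromatin enzyme MLL2, and it does not name the lysosome. The labels do not state dose, route, sampling time, strain, sex or age, and they name no allele or further agent. Nothing says that each library came from a separate animal, so the p-values below reflect spread among these samples, which may be technical.

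Library totals ran from 3676259 to 5432072 counts with paclitaxel and from 4585899 to 7791594 with vehicle, so that 3 counts, the limit that a count of 0 allows, corresponded to 0.384 to 0.817 CPM (counts scaled to library size). That limit covers counting error only. The label of the tissue was borne out by its cells: summed oligodendrocyte markers (6 of 6 tested) ran from 20734 to 24601 CPM with paclitaxel and from 21337 to 23738 with vehicle. The 7 dorsal root ganglion markers summed to 67.6 to 104 CPM with paclitaxel and 76.5 to 103 CPM with vehicle, of which Pmp22, also a gene of myelinating glia, made up nearly all (91.9 CPM on average). Among the sensory neuron markers Mrgprd was at 0 and Scn10a, Trpv1, Scn11a and Nppb had 1 to 7 counts over all libraries. Border macrophage markers summed to at most 5.30 CPM in any library, and T and NK cell markers to at most 1.66 CPM, with Prf1 at 0. In bulk tissue, fewer cells of a type and less RNA per cell cannot be told apart.

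The V-ATPase is a rotary motor that uses ATP to drive protons into lysosomes, endosomes and synaptic vesicles. Its cytosolic V1 sector splits ATP and its membrane-embedded V0 sector carries the protons. The acid it makes activates the cathepsins, proteases that digest what reaches the lysosome, and in neurons it also powers the filling of synaptic vesicles with transmitter. Many lysosomal genes are known to be switched on together by the transcription factors TFEB and TFE3, which bind an E-box (CACGTG) flanked by a T and called the CLEAR element.

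Copies of this element in the members' promoters are printed here because pump, assembly, cathepsin and LAMP genes all include carriers of it. RefSeq windows on GRCm38.p6, from 250 bases before to 50 bases after each transcription start, were matched to 35 of the 46 members. Not matched were Atp6v0a2, Atp6v0c-ps2, Atp6v0d2, Atp6v1b2, Atp6v1c1, Atp6v1g1, Atp6v1h, Ctsb, Ctse, Ctsh and Ctsw. The core CACGTG, which reads the same on both strands, was present in 10 of 35 members (28.6%) and in 8.09% of 27025 genes. The longer TCACGTG, searched on both strands and always containing the core, was present in 8 of 35 members (22.9%) and in 4.29% of all genes. For each of the 8 genes the match nearest to the start is printed 5′ to 3′ on the gene's strand, 30 bases long, with the core in capitals.

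Vma21: ccgcgggtaagtCACGTGagtgcttgcagc
Atp6v0b: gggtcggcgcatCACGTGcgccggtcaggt
Atp6v0d1: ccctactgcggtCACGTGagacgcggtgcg
Atp6v0e: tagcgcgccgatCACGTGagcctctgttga
Atp6v1a: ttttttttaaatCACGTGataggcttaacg
Ctsa: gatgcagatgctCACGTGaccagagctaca
Ctsd: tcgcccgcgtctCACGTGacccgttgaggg
Lamp1: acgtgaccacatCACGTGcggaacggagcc

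These stretches lie at chrX:71816694-71816723 (Vma21, plus strand), chr4:117887330-117887359 (Atp6v0b, minus), chr8:105566050-105566079 (Atp6v0d1, minus), chr17:26676387-26676416 (Atp6v0e, plus), chr16:44139373-44139402 (Atp6v1a, minus), chr2:164833766-164833795 (Ctsa, plus), chr7:142387908-142387937 (Ctsd, minus) and chr8:13159134-13159163 (Lamp1, plus). In the GENCODE M21 annotation of the same assembly the stretches of Vma21, Atp6v0b, Atp6v0e, Ctsa, Ctsd and Lamp1 touch an exon of their own gene, that of Atp6v1a lies within its gene outside exons, and that of Atp6v0d1 overlaps no annotated gene. The window of Lamp1 held 4 cores, the most among the members. A match is a description of letters and not evidence of binding.

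Of the 46 members, 32 passed the filter on low counts and were tested. The other 14 were at or near 0. Listed at 0 in every library were Atp6v1b1, Atp6v1g3 and Atp6v0d2, isoforms known from kidney and osteoclasts, with Ctsg, a neutrophil protease, and Ctsj, Ctsm, Ctsq and Ctsr, which belong to the placental cathepsins of rodents. Below the filter with few counts were Atp6v1c2 and Atp6v1e2 (3 counts each over 10 libraries), Atp6v0a4 (5.09 expected counts), Ctse (7 counts) and Ctsw (3 counts). The remaining one, Atp6v0c-ps2, is a pseudogene that matches the Atp6v0c transcript at 464 of its 465 bases (99.8%). It was listed at 23.7 expected counts in paclitaxel replicate 1, at 17.6 in vehicle replicate 5 and at 0 in the other 8 libraries, so its reads and those of Atp6v0c cannot be told apart.

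**Figure D1:**
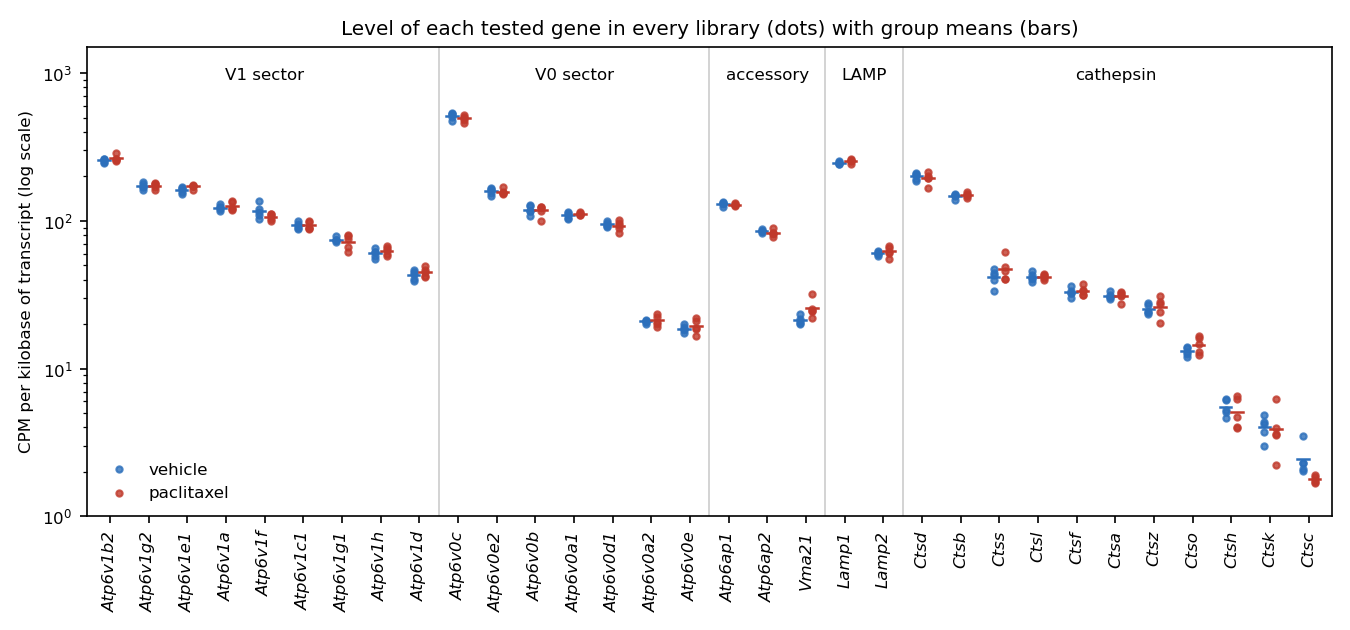
Level of each of the 32 tested members as CPM per kilobase of transcript (log axis), with 1 dot per library, horizontal bars at group means, vehicle in blue and paclitaxel in red. Levels span from 2.11 (Ctsc) to 503 (Atp6v0c) while the groups lie side by side within nearly every gene.

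Levels between genes were compared per kilobase of transcript, over all 10 libraries. Atp6v0c, whose product forms most of the rotating proton ring, was the highest member at 503 CPM per kilobase. It was followed by Atp6v1b2, the B subunit isoform of brain, at 260 and by Lamp1, the main glycoprotein of the lysosomal membrane, at 251. The leading cathepsins were the aspartic protease Ctsd at 197 and the cysteine protease Ctsb at 148. Next to them stood the peripheral stalk genes Atp6v1g2 at 173 and Atp6v1e1 at 167, and the small membrane subunit Atp6v0e2 at 158. The catalytic subunit Atp6v1a was at 125. The assembly factor Vma21 was at 23.4, beside the V0 subunit genes Atp6v0a2 at 21.0 and Atp6v0e at 19.0. Ctsh, Ctsk and Ctsc were the lowest tested members at 5.28, 3.98 and 2.11.

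Isoform shares differed between the groups by less than the SD of either group in each of 4 pairs. Per kilobase, the a1 isoform of synaptic vesicles, Atp6v0a1, made up 84.0 ± 1.24% of Atp6v0a1 plus Atp6v0a2 with paclitaxel and 83.9 ± 0.64% with vehicle (SD, n = 5 each). Atp6v0e2 made up 89.0 ± 1.32% of the pair with Atp6v0e in the paclitaxel group and 89.5 ± 0.87% in the vehicle group (SD, n = 5 each). For the neuronal G2 isoform, Atp6v1g2, the share of the pair with Atp6v1g1 was 70.5 ± 2.21% and 69.8 ± 0.79% (SD, n = 5 each). Lamp1 held 80.4 ± 1.56% and 80.4 ± 0.57% of the LAMP pair (SD, n = 5 each). In each pair the group ranges overlapped. These shares rest on the transcript lengths used, which differ most for Lamp2 (1769 to 3604 bases among its transcripts).

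Paclitaxel was compared with vehicle to ask whether the pump and the lysosomal proteases differ in the cord. No member passed an adjusted p of 0.05 (edgeR quasi-likelihood test over 13287 genes, 0 of 32), as no gene did (0% of all tested genes, smallest adjusted p = 0.791). An unadjusted p under 0.05 was met by 2 of 32 members, or 6.25%, against a background of 6.06%. They were Vma21, higher with paclitaxel (background 2.94% for higher), and Ctsc, lower with it (background 3.12% for lower). The low p of Vma21 was known when the members were chosen, so this count is not independent of it. Groups that did not overlap in CPM were found for 0 members in the higher direction (background 0.467%) and for 1, Ctsc, in the lower (background 0.625%). The median log2 fold change was 0.01 over the 32 members, 19 higher and 13 lower in value, and -0.003 over all tested genes.

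The differences were small and tightly bounded for the pump. All 18 tested Atp6 genes (9 of V1, 7 of V0 and 2 accessory) had a 95% interval inside a 1.5-fold change in either direction, where 86.7% of all tested genes did. A 1.2-fold change in either direction held the intervals of 16 of these 18, against 41.6% of all tested genes. Of the 11 tested cathepsins, 10 had intervals inside 1.5-fold and 6 inside 1.2-fold. Narrow intervals go with high counts, and the median spread between libraries of a group was 6.03% of the mean over the members and 10.9% over all tested genes. The pump and its accessory genes together took 0.455% to 0.480% of all counts in the paclitaxel libraries and 0.459% to 0.469% in the vehicle libraries. Cathepsins took 0.145% to 0.157% and 0.151% to 0.155%.

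**Figure D2:**
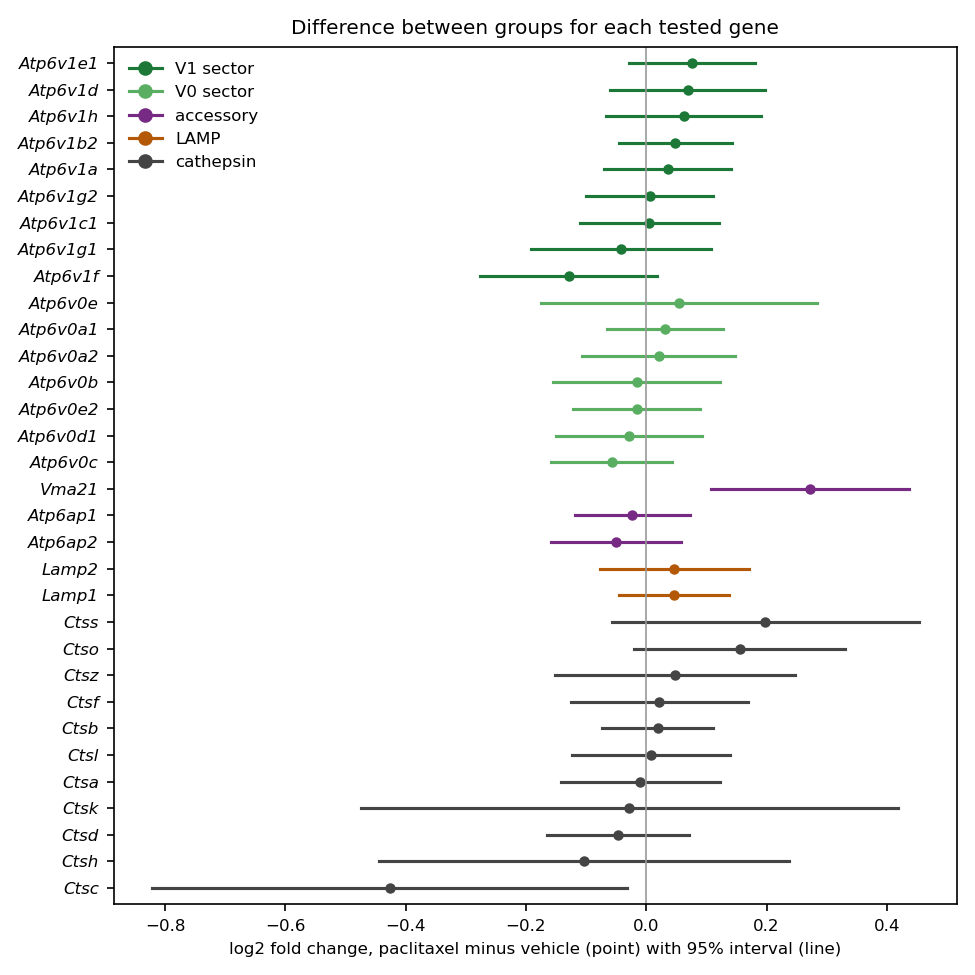
Log2 fold change of paclitaxel over vehicle (points) with 95% intervals (lines) for the 32 tested members, coloured by role. The intervals of Vma21 (0.11 to 0.44) and Ctsc (-0.82 to -0.03) exclude 0 before adjustment, and those of the other 30 members include it.

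The V1 sector is the ATP-splitting part of the pump. All 9 tested V1 genes lay between -0.13 and 0.08 on the log2 scale, with 7 higher and 2 lower in value, a median of 0.04 and 0 at an unadjusted p under 0.05. Atp6v1f, a small subunit of the central stalk, had the lowest p of the sector. Its CPM was 70.6, 75.8, 72.4, 77.9 and 77.6 in paclitaxel replicates 1 to 5 and 72.9, 77.2, 95.04, 84.2 and 80.9 in vehicle replicates 1 to 5. Each paclitaxel library was below the vehicle mean, but the groups overlapped because vehicle replicates 1 and 2 were low. The log2 fold change was -0.13 (SE 0.07, edgeR unadjusted p = 0.0833, adjusted p = 0.801), and it was -0.07 without vehicle replicate 3 and -0.04 once GC content and transcript length were corrected for. Without vehicle replicate 1 it was -0.16 and its unadjusted p was under 0.05.

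Atp6v1e1, part of the peripheral stalk that holds V1 in place, was at 229, 213, 226, 227 and 227 CPM with paclitaxel and at 216, 206, 218, 200 and 223 CPM with vehicle, replicates 1 to 5. Paclitaxel replicate 2 alone fell inside the vehicle range. Its log2 fold change was 0.08 (SE 0.05, edgeR unadjusted p = 0.148). Atp6v1d, the shaft of the rotor, was at 164, 155, 182, 153 and 171 CPM and at 171, 145, 165, 147 and 159 CPM in the same order, with broad overlap. Its log2 fold change was 0.07 (SE 0.06) and fell to 0.005 after the GC and length correction and 0.03 without paclitaxel replicate 3.

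Atp6v1b2, the abundant B subunit, stood at 809, 717, 730, 743 and 743 CPM with paclitaxel and at 728, 746, 700, 707 and 735 CPM with vehicle. Paclitaxel replicate 1 was the one library above the vehicle range. The group difference was 0.05 on the log2 scale (SE 0.05, 95% interval -0.05 to 0.14), and 0.02 without that library. Atp6v1g2 was at 269, 247, 275, 272 and 259 CPM and at 248, 260, 258, 270 and 280 CPM, which overlapped almost entirely (log2 fold change 0.006, SE 0.05). The catalytic Atp6v1a, the brake and assembly subunit Atp6v1h and the clamp Atp6v1c1 had log2 fold changes of 0.04, 0.06 and 0.005, and the second G isoform Atp6v1g1 of -0.04.

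The V0 sector carries the protons. All 7 tested V0 genes lay between -0.06 and 0.05 on the log2 scale, with 3 higher and 4 lower in value, a median of -0.02 and 0 at an unadjusted p under 0.05. Atp6v0c was at 611, 573, 542, 590 and 601 CPM with paclitaxel and at 561, 625, 636, 593 and 621 CPM with vehicle, replicates 1 to 5. The lowest value was that of paclitaxel replicate 3, and the groups overlapped. Its log2 fold change was -0.06 (SE 0.05, edgeR unadjusted p = 0.249), -0.03 without paclitaxel replicate 3, 0.0045 after the GC and length correction, and -0.06 when the pseudogene's counts were added.

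Atp6v0a1, which docks the pump on synaptic vesicles, was at 431, 415, 434, 418 and 426 CPM in the paclitaxel group and at 392.5, 399, 418, 434 and 434 CPM in the vehicle group. Here the paclitaxel values sat within the vehicle range or level with its top (log2 fold change 0.03, SE 0.05). Atp6v0d1, the coupling between the ring and the V1 shaft, was at 157, 152, 136, 165 and 146 CPM and at 150, 158, 162, 152 and 148 CPM. Paclitaxel replicate 3 was lowest again, and the log2 fold change of -0.03 (SE 0.06) was 0.008 without that library.

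The small membrane subunit has a pair of genes, Atp6v0e2 and Atp6v0e. Atp6v0e2 was at 272, 277, 278, 279 and 301 CPM with paclitaxel and 263, 298, 289, 277 and 296 CPM with vehicle (log2 fold change -0.02, SE 0.05). Atp6v0e was at 18.2, 13.6, 17.4, 15.5 and 15.2 CPM and at 16.4, 15.7, 14.3, 15.2 and 15.1 CPM, a difference of 0.05 (SE 0.11), or 0.008 without paclitaxel replicate 1. The vehicle range of Atp6v0e lay inside its paclitaxel range, and the ranges of Atp6v0e2 overlapped. The Golgi-linked Atp6v0a2 and the second ring protein gene Atp6v0b had log2 fold changes of 0.02 and -0.02.

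Vma21 was the member with the lowest p. It encodes a small membrane protein of the endoplasmic reticulum that chaperones the assembly of V0 and leaves before the pump reaches the lysosome, and inherited loss of the human gene causes a muscle disease with excess autophagy. The gene lies on the X chromosome from 71812752 to 71824706 (GRCm38). Its CPM was 105, 94.8, 137, 109 and 105 in paclitaxel replicates 1 to 5 and 99.7, 86.3, 87.1, 92.7 and 89.5 in vehicle replicates 1 to 5. All 5 paclitaxel libraries were above the vehicle mean, replicate 3 stood highest, and the groups overlapped because paclitaxel replicate 2 was below vehicle replicate 1. The means were 110 ± 15.7 and 91.1 ± 5.45 CPM (SD, n = 5 each), and the fitted fold was 1.21 (95% interval 1.08 to 1.35).

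The log2 fold change of Vma21 was 0.27 (SE 0.08), rank 29 by p among 13287 genes (edgeR unadjusted p = 0.0023, adjusted p = 0.791). That it stands near the top of the ranking was known before, so this is a description. After the GC and length correction the log2 fold change was 0.15, and without paclitaxel replicate 3 it was 0.18. Over every alternative it kept its direction, from 0.15 to 0.33, with adjusted p from 0.363 to 1.00. Its transcript is the least GC-rich of the tested members, at 36.6% GC.

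**Figure D3:**
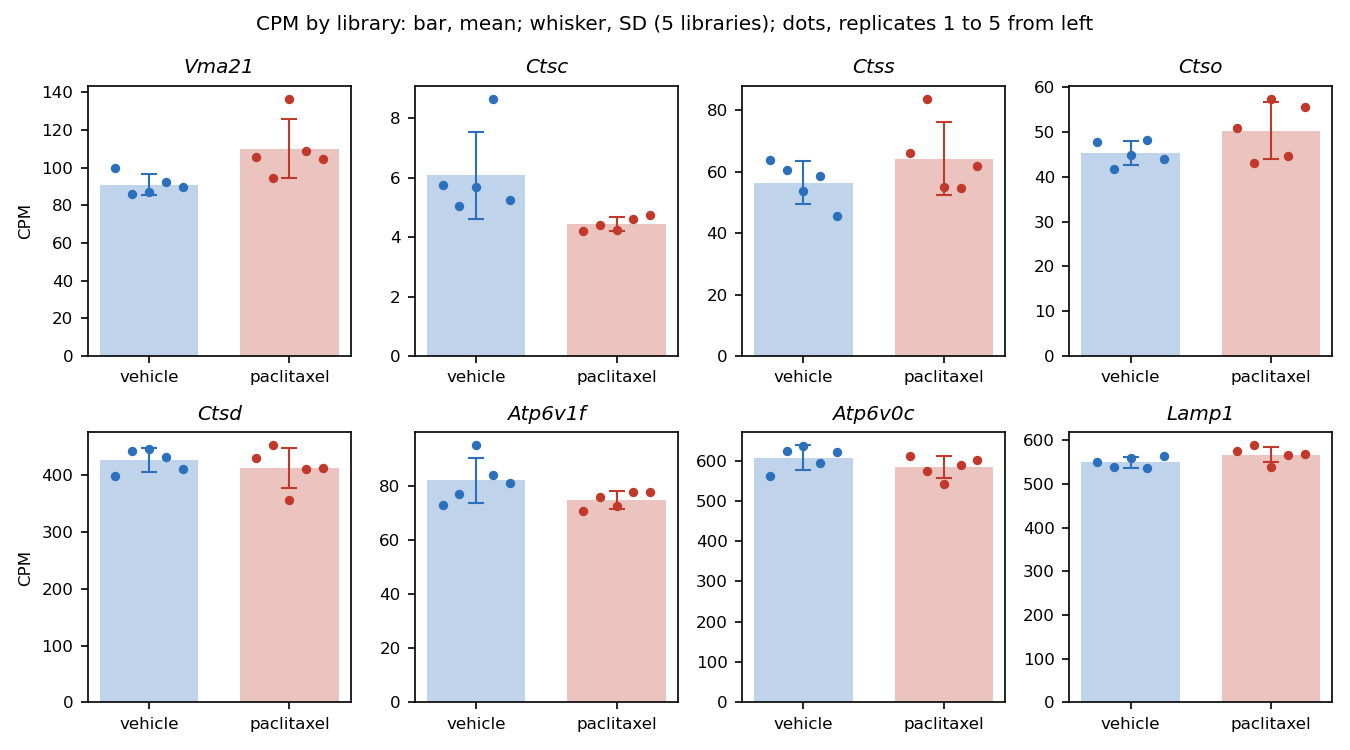
CPM of 8 members by library, with bars at group means, whiskers of 1 SD (5 libraries) and dots for replicates 1 to 5 from left to right, vehicle in blue and paclitaxel in red, axes starting at 0. Ctsc is the one gene whose paclitaxel dots (4.21 to 4.76) lie wholly below the vehicle dots (5.05 to 8.66).

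The accessory subunits did not share the pattern of Vma21 in value. Atp6ap1, or Ac45, guides V0 assembly together with Vma21, and Atp6ap2 is the prorenin receptor, a second accessory subunit. Atp6ap1 was at 280, 278, 277, 284 and 289 CPM with paclitaxel and at 293, 289, 286, 290 and 273 CPM with vehicle, the least variable member, with a spread of 2.31% of its mean. The groups overlapped through replicate 5 of each (paclitaxel high, vehicle low) (log2 fold change -0.02, SE 0.05, 95% interval -0.12 to 0.07). Atp6ap2 was at 193, 189, 207, 179 and 191 CPM and at 206, 191, 199, 198 and 198 CPM, a log2 fold change of -0.05 (SE 0.05), and of -0.13 after the GC and length correction. Like Vma21, both genes and Lamp2 lie on the X chromosome.

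The LAMP proteins line the lysosomal membrane and shield it from the enzymes inside. Lamp1 was at 575, 588, 539, 567 and 568 CPM with paclitaxel and at 550, 538, 559, 536 and 564 CPM with vehicle. In 4 of 5 paclitaxel libraries it was above the vehicle range, and replicate 3 lay at the low end of that range. The fitted difference was 0.05 on the log2 scale (SE 0.04, edgeR unadjusted p = 0.302), with a 95% interval from -0.04 to 0.14. Lamp2, which also receives proteins for chaperone-mediated autophagy, was at 143, 134, 148, 120 and 132 CPM and at 136, 130, 134, 130 and 127 CPM. Its log2 fold change of 0.05 (SE 0.06) was -0.02 after the GC and length correction.

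Cathepsins varied more than the pump. Of 11 tested, 6 were higher and 5 lower in value, from -0.43 to 0.20 on the log2 scale, with a median of 0.008. Ctsc, or dipeptidyl peptidase 1, activates the granule proteases of neutrophils, mast cells and cytotoxic lymphocytes. Its CPM was 4.21, 4.43, 4.24, 4.63 and 4.76 in paclitaxel replicates 1 to 5 and 5.77, 5.05, 5.71, 8.66 and 5.24 in vehicle replicates 1 to 5. The groups did not overlap, which was so for 1 of 32 members and for 1.09% of all tested genes. The level rests on 273 counts over 10 libraries, and the spread pooled over both groups (19.99% of the mean) was close to what counting alone gives (19.1%). That figure joins unlike groups, with an SD of 0.24 CPM with paclitaxel and 1.47 CPM with vehicle, so it describes neither.

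For Ctsc the means were 4.45 ± 0.24 and 6.09 ± 1.47 CPM (SD, n = 5 each), a log2 fold change of -0.43 (SE 0.19, edgeR unadjusted p = 0.0353, adjusted p = 0.791). Leaving out vehicle replicate 4 gave -0.28, and leaving out paclitaxel replicate 3 as well gave -0.26, neither with an unadjusted p under 0.05. That p was also not under 0.05 without paclitaxel replicate 1, 2 or 3 alone, in DESeq2 or in limma-voom. In vehicle replicate 4 the 8 meningeal and fibroblast markers summed to 163 CPM, against 110 to 121 CPM in the other vehicle libraries and 120 to 131 CPM with paclitaxel. Over all libraries the largest parts of that sum were Pdgfra (60.2 CPM on average) and Col1a2 (33.0 CPM), so it leans on few genes. The 9 markers of neutrophils and mast cells, cells in which Ctsc is known to act, summed to 0.27 to 2.97 CPM with paclitaxel and 0.35 to 7.58 CPM with vehicle, with Cpa3, Cma1 and Mcpt4 at 0. The highest sum was in vehicle replicate 1, where Ctsc was at 5.77 CPM, and vehicle replicate 4 had 2.38 CPM. The part of these cells in the result was not tested.

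Ctss, a microglial protease that stays active at neutral pH and is known for releasing the chemokine domain of fractalkine in neuropathic pain, was at 65.9, 83.7, 54.9, 54.7 and 61.7 CPM with paclitaxel. With vehicle it was at 63.8, 60.5, 53.8, 58.5 and 45.7 CPM. Paclitaxel replicates 1 and 2 were above the vehicle range, vehicle replicate 5 was lowest, and the other libraries were interleaved. The fitted difference was 0.20 on the log2 scale (SE 0.12, edgeR unadjusted p = 0.119, interval -0.06 to 0.45), and 0.08 without paclitaxel replicate 2. The summed level of 12 microglial markers (12 of 12 tested) was also highest in paclitaxel replicate 2, at 336 CPM. It ran from 243 to 336 CPM with paclitaxel and from 253 to 319 CPM with vehicle, where replicate 5 was lowest. Of those 12 markers, 8 were higher and 4 lower in value with a median of 0.08 and 0 at an unadjusted p under 0.05. Their part in the values of Ctss was not tested.

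Ctso, a cysteine cathepsin, was at 51.0, 43.0, 57.4, 44.6 and 55.5 CPM with paclitaxel and at 47.8, 41.8, 44.8, 48.3 and 43.9 CPM with vehicle. In the paclitaxel group 3 libraries lay above the vehicle range and the other two inside it. Its log2 fold change was 0.16 (SE 0.09, edgeR unadjusted p = 0.081), and 0.09 after the GC and length correction. The unadjusted p went under 0.05 without paclitaxel replicate 2 or without paclitaxel replicate 4.

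The bulk lysosomal proteases Ctsd and Ctsb did not differ in value beyond their spread. Ctsd was at 430, 452, 356, 412 and 413 CPM with paclitaxel and at 399, 443, 446, 433 and 411 CPM with vehicle. Paclitaxel replicate 3 was the lowest library and the log2 fold change of -0.05 (SE 0.06) was 0.004 without it. Ctsb was at 712, 675, 697, 738 and 721 CPM and at 715, 660, 705, 702 and 713 CPM. Its log2 fold change was 0.02 (SE 0.04) with a 95% interval from -0.07 to 0.11. The other 6 tested cathepsins had log2 fold changes from -0.10 (Ctsh) to 0.05 (Ctsz), with Ctsk, the collagen protease of osteoclasts, at -0.03, Ctsa, the carrier of β-galactosidase and neuraminidase, at -0.01, Ctsl at 0.008 and Ctsf at 0.02.

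**Figure D4:**
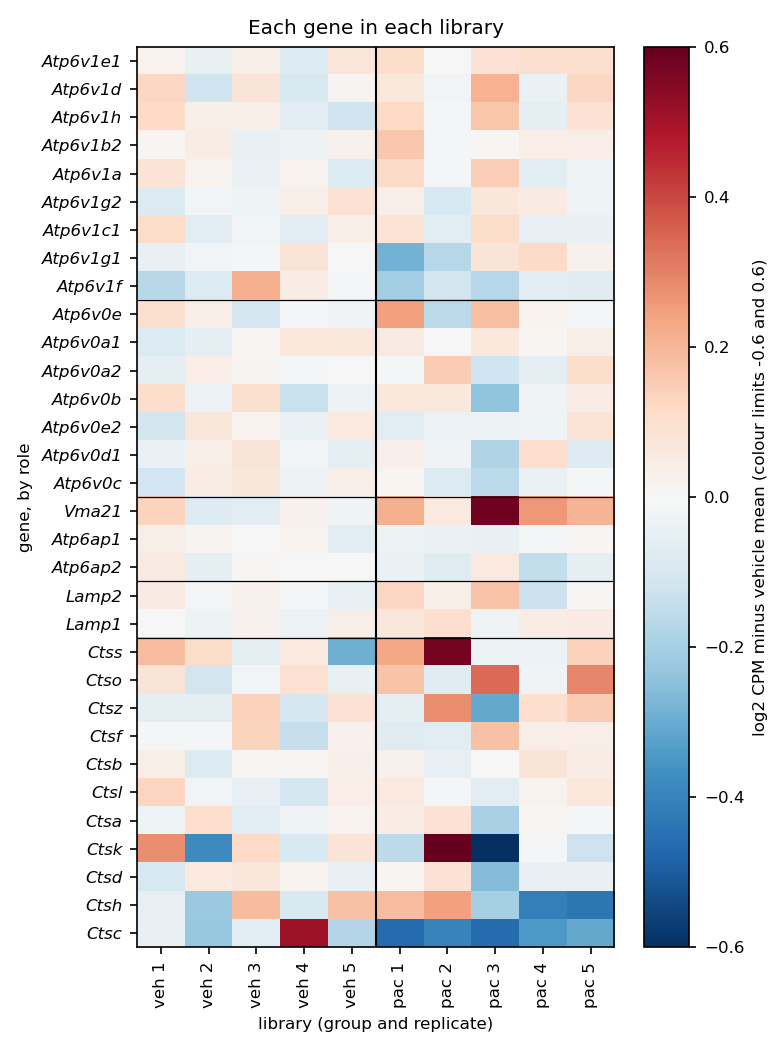
Log2 CPM minus the vehicle mean for the 32 tested members (rows, by role) in each of the 10 libraries (columns, vehicle then paclitaxel, the line between them), with colour limits at -0.6 and 0.6. Vma21 is red in all 5 paclitaxel libraries and Ctsc blue in them, while paclitaxel replicate 3 shows most V0 genes and most cathepsins in blue beside most V1 genes in red. Ctsc is also below 0 in vehicle replicates 1, 2, 3 and 5, with replicate 4 at 0.51. Vma21 is higher in vehicle replicate 1 (0.13) than in paclitaxel replicate 2 (0.06).

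Libraries differed from each other in a way that crossed the roles. In paclitaxel replicate 3 the median log2 difference from the vehicle mean was -0.19 for cathepsins and -0.12 for V0 genes but 0.09 for V1 genes. In the other 4 paclitaxel libraries the cathepsin median ran from -0.01 to 0.09 and the V0 median from -0.02 to 0.04, while the V1 median ran from -0.04 to 0.08 and so came close to that of replicate 3. Paclitaxel replicate 3 also had the lowest sums of markers of microglia (243 CPM), endothelium (87.5 CPM), oligodendrocytes (20734 CPM), neurons (12841 CPM), motor neurons (233 CPM) and red blood cells (47.7 CPM). The sums of the bone (15.7 CPM) and dorsal root ganglion (67.6 CPM) sets were also lowest there. Those were nearly all Mmp9 (19.3 CPM on average) and Pmp22, so they do not show bone or ganglion cells. The other bone genes had 1 (Bglap) to 8 (Ibsp) counts over all libraries. The mean log2 difference of the 7 astrocyte markers from vehicle was highest in paclitaxel replicate 3, at 0.20. Its lowest paclitaxel value (0.028) was just above its highest vehicle value (0.020), while the other marker sets with such a mean overlapped. Single genes did not overlap in 1.09% of all tested genes, but that share does not apply to a mean over several genes. The summed astrocyte levels overlapped (4951 to 5454 CPM and 4733 to 5147 CPM). An edgeR unadjusted p under 0.05 was met by 1 of 7 astrocyte markers, higher with paclitaxel. The same held for 1 of 6 tested meningeal and fibroblast markers, Pdgfra (background 2.94% for higher). In the lower direction it was met by 2 of 10 neuron markers (background 3.12% for lower). The part of these cells in the role medians was not tested.

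GC content of the transcripts moved with these differences. Across the 32 tested members, the log2 CPM of paclitaxel replicate 3 minus the mean of all 10 libraries had a Pearson r of -0.51 with GC content (Spearman rho -0.55). The r was -0.49 in vehicle replicate 1, 0.48 in vehicle replicate 3, 0.43 in vehicle replicate 5 and 0.41 in vehicle replicate 2, and over 13244 tested genes it was -0.29, -0.30, 0.33, 0.26 and 0.22 in those 5 libraries. In the other 5 libraries the members' r was weaker, at -0.13, 0.18, 0.26 and -0.09 in paclitaxel replicates 1, 2, 4 and 5 and -0.10 in vehicle replicate 4. Over all tested genes r was -0.17, 0.09, -0.06, -0.02 and 0.15 in the same order. Its sign was opposite to that of the members in paclitaxel replicate 4 and vehicle replicate 4. The r over all tested genes was negative in every paclitaxel library but replicate 2 and positive in every vehicle library but replicate 1, so it leaned with group. These are correlations across genes within a library, and genes are not independent replicates. In paclitaxel replicate 3 the 9 members under 45% GC had a median deviation of 0.14 and the 7 members at 55% GC or more of -0.19. Between the groups, 7 of the 9 members under 45% GC were higher in value with paclitaxel (median log2 fold change 0.05), and 2 of the 7 members at 55% or more (median -0.02).

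**Figure D5:**
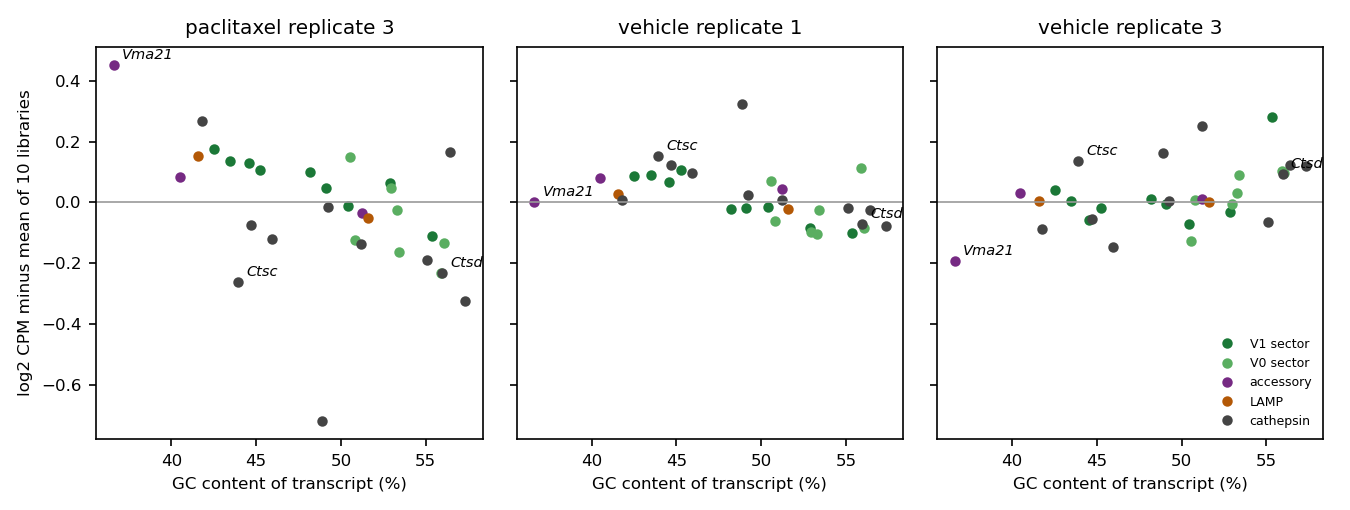
Log2 CPM minus the mean of 10 libraries against the GC content of the transcript for the 32 tested members in 3 libraries, coloured by role. Points fall from left to right in paclitaxel replicate 3 (r = -0.51) and vehicle replicate 1 (r = -0.49) and rise in vehicle replicate 3 (r = 0.48), with Vma21 at the low-GC end.

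Of the 25 tested members with a promoter window, the 8 with TCACGTG had a median log2 fold change of 0.01, 4 of them higher in value, and the 17 without it a median of 0.008. Among the 8 were Vma21 (0.27) and Ctsd (-0.05), whose sequences are printed above. The TFEB family and its mTORC1 control at the lysosome had 23 of 24 listed genes tested, with 12 higher and 11 lower in value, a median of 0.004, and 0 called in edgeR. Only 1, lower with paclitaxel, had an unadjusted p under 0.05: Zkscan3, known as a repressor of lysosomal genes, with a log2 fold change of -0.19 (SE 0.09). Next by p came the folliculin partner gene Fnip1 (0.16), the kinase Mtor (-0.09) and the calcineurin catalytic subunit Ppp3ca (0.07). Tfeb and Tfe3 themselves, named for their role, differed by -0.07 (SE 0.14) and by -0.04 (SE 0.09) on the log2 scale.

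Of 13 genes for assembly and partners of the pump outside the symbol rule, all tested, 8 were higher and 5 lower in value, with a median of 0.01 and 0 at an unadjusted p under 0.05. By p they were led by Oxr1, which carries a TLDc domain (0.10, SE 0.05), the glycolytic genes Aldoa (-0.07) and Pfkm (-0.06), whose products bind the pump, and the assembly factor Ccdc115 (0.16, SE 0.14). Soluble hydrolases and activators other than cathepsins had 38 of 39 tested, 19 higher and 19 lower in value, with a median of -0.0003. In the lower direction an unadjusted p under 0.05 was met by 1, the β-galactosidase Glb1 (-0.22, SE 0.10), averaging 21.7 ± 1.31 CPM in the paclitaxel group and 25.4 ± 3.14 CPM in the vehicle group (SD, n = 5 each). The iduronate sulfatase Ids (0.11) and galactosylceramidase Galc (0.16) were also among the lowest by p, with edgeR adjusted p = 0.801 for both.

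Lysosomal membrane proteins other than Lamp1 and Lamp2 had 21 of 22 tested, 11 higher and 10 lower in value, with a median of 0.01 and 0 at an unadjusted p under 0.05. Ostm1, the partner of the chloride transporter ClC-7, led by p at 0.16 (SE 0.08), before Laptm4a (0.07), the cholesterol exporter Npc1 (-0.08) and the calcium channel Mcoln1 (-0.08). Mannose 6-phosphate tagging and lysosomal sorting had all 17 genes tested, 10 higher and 7 lower in value, a median of 0.003 and 0 at an unadjusted p under 0.05. The sorting adaptors Gga2 (-0.18) and Gga1 (-0.11) had the lowest p, before the uncovering enzyme gene Nagpa (-0.18) and the retromer partner Snx1 (0.08). Cathepsin inhibitors had 6 of 11 tested, 3 in each direction, with a median of 0.007 and 0 at an unadjusted p under 0.05. The main one in cord, cystatin C (Cst3), averaged 591 ± 33.4 CPM in the paclitaxel group and 602 ± 31.0 CPM in the vehicle group (SD, n = 5 each), a log2 fold change of -0.03, and lower p values belonged to Serpinb9 (0.21) and Serpinb6a (0.06), while Cst6 (-0.13) came next. None of these genes passed an adjusted p of 0.05.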

How the data were processed

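Values are expected counts as deposited by the authors, with 1 column for each library and no adjustment for depth. The submitters' processing notes list STAR, RSEM, edgeR 4.2.0 and mm10. Their annotation, strand setting and read filters are not stated. An expected count apportions reads that fit several near-identical genes. They were rounded (5.04% were not whole), filtered with filterByExpr (minimum count 10, minimum total 15), scaled by TMM and tested in edgeR 4.0.16 (R 4.3.3) by the robust quasi-likelihood test, two-sided, with Benjamini-Hochberg adjustment over all genes tested and a threshold of 0.05. CPM uses TMM-scaled library totals, with a prior count of 2 on the log2 scale. Intervals are at 95%. The fit was tested on simulated data. No pair of libraries in a group agreed within sampling noise. Transcript lengths and GC content are medians over GENCODE M21 transcripts matched by RefSeq accession (32 of 32 tested members).

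Members, gene lists and alternatives were chosen with earlier results of these data known. Named with values in every library were Vma21, both accessory genes, both LAMP genes and, in each of V1, V0 and cathepsins, the 4 tested genes of lowest p and the 2 of highest level per kilobase. Of each gene list up to 4 genes of lowest p were named. One result among them is not reported here. Alternatives were other scalings and filters, DESeq2 1.42.0, limma-voom (limma 3.58.1), the replicate number as a block, a loess correction for GC content and length, and leaving out libraries. Summing Atp6v0c with its pseudogene was added after the data were seen.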

Additional observations from a re-analysis of the deposited data

Results flagged for a closer look

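Among 64 groups of 5 libraries (32 tested members in each treatment), 5 held a library whose gap to its nearest neighbour exceeded Dixon's 95% critical share of the group's range. Chance alone gives about 1 such group in 20. Ctsc stood at 8.66 CPM in vehicle replicate 4, where the next library was at 5.77 CPM. Ctsb was lowest in vehicle replicate 2, at 660 CPM, with its neighbour at 702 CPM. Atp6v1b2 reached 809 CPM in paclitaxel replicate 1, next to 743 CPM. Atp6v1e1 was at 213 CPM in paclitaxel replicate 2, below a neighbour at 226 CPM. Atp6v0e2 was at 301 CPM in paclitaxel replicate 5, above a neighbour at 279 CPM.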

How the results depend on the processing

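No member passed an adjusted p of 0.05 under any alternative run. Over all genes, 1 gene passed in DESeq2 (Klf4), 1 with the replicate block and 1 with that block and the GC and length correction (Fos in both). The block gave 3 members at an unadjusted p under 0.05 (Ctsc, Ctss and Vma21, with 6.31% of all genes). Same-numbered libraries had correlations of deviations from -0.29 to 0.28, and 2 of 5 correlated best with their own number. These correlations cannot decide whether libraries of equal number belong together, because deviations of single libraries also moved with GC content. The GC and length correction also gave 3 (Atp6ap2, Ctsc and Vma21, with 4.57% of all genes), and no filter gave 3 of 38 (Atp6v1c2, Ctsc and Vma21, with 5.52%). Members at an unadjusted p under 0.05 were 1 (Vma21) in DESeq2 (4.30% of all genes), in limma-voom (6.01%) and without both paclitaxel replicate 3 and vehicle replicate 4 (3.78%), and 1 to 3 when each library was left out (3.81% to 9.79%). Vma21 was among them in every setting, with a log2 fold change from 0.18 to 0.33 over the libraries left out. With the GC and length correction Lamp2 was at -0.023, Atp6v0c at 0.0045, Atp6v0d1 at 0.0055, Atp6v0e2 at 0.017 and Ctsd at 0.0032, directions opposite to the report, and with the block added they were at -0.025, 0.0037, 0.0043, 0.017 and 0.0019. Without paclitaxel replicate 3 and vehicle replicate 4 together Atp6v1g2 was at -0.0020, Atp6v0d1 at 0.0027 and Ctsd at 0.0077. With each library left out Atp6v1g2 ran from -0.0098 to 0.033, Atp6v0d1 from -0.056 to 0.0083, Ctsd from -0.080 to 0.0043 and Atp6v0e2 from -0.042 to 0.0055. The cause of these shifts was not tested. Among the 32 tested members depth limits Ctsc and Ctsk most, whose counting error alone is 19.1% and 17.8% per library.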
